A study of Mus musculus with 4 samples.

Results

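The mitochondrial ribosomal protein genes were taken as every protein-coding gene in the curated RefSeq annotation of the mouse genome (GRCm38/mm10) whose symbol starts with Mrpl or Mrps and goes on with a number. This gave 78 of 21000 protein-coding genes, spread over 17 chromosomes, after 6 pseudogenes with such symbols had been left out. RUNX1 binding was read from a list of 10494 peaks, of which 10490 lie on chromosomes. Each peak was assigned to the gene whose transcription start site (TSS) lies nearest to its edge, with ties kept, and 52 peaks were nearest to a mitochondrial ribosomal protein gene. The peaks come from chromatin immunoprecipitation and sequencing (ChIP-seq) of ovaries from CD1 mouse embryos at stage E14.5 (embryonic day), with 2 RUNX1 ChIP samples and 2 input samples. Each ChIP used 20 to 30 µg of chromatin from a pool of 80 to 100 ovaries and 10 µl of an antibody to RUNX1. These are the figures in the labels, and the study's methods give another size for the pools. The labels give no genotype beyond the strain, and neither group is described as carrying a mutation or receiving a treatment.

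RUNX1 is a DNA-binding transcription factor that recognises a short core sequence, and in the fetal ovary it is known from the supporting cells that become granulosa cells. The mitochondrial ribosome translates the few messenger RNAs that are transcribed from mitochondrial DNA, all of which encode subunits of the respiratory chain and of ATP synthase. Its proteins, by contrast, are encoded in the nucleus, made in the cytosol and imported. The small subunit decodes the messenger RNA and the large subunit joins the amino acids. Some of the proteins have a counterpart in bacterial ribosomes and others are found in mitochondria alone.

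The authors merged the replicates before they called peaks, so that each peak has 1 fold enrichment over background, 1 p-value and no replicate error. No test between samples is possible, and the read depth behind a single peak is not in the list. Intervals below are exact 95% binomial (Clopper-Pearson) intervals, which cover counting error only and treat genes or peaks as independent. Whole ovaries hold supporting cells, germ cells, interstitial cells and others, and a peak cannot be assigned to one of them. A peak list measures no RNA, so that the tissue label was not checked against marker genes and nothing is known here of how strongly any of the genes was expressed.

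A majority of the mitochondrial ribosomal protein genes carried RUNX1 at their start. Of the 78 genes, 49 (62.8%, interval 51.1 to 73.5%) were nearest to at least 1 peak, against 39.1% of all protein-coding genes. Whichever gene the peak was assigned to, 53 genes (67.9%) had a TSS within 1 kb of one, against 37.4% of all. By either measure together, 55 genes (70.5%) were counted, against 42.0% of all. The median distance from the TSS to the closest peak was 50.5 bp for these genes and 19807 bp over all protein-coding genes. These medians restate the shares within 1 kb, a majority of these genes and a minority of all genes. Among genes with a CpG-rich promoter, defined below, the share within 1 kb was also a majority (64.0%), and their median was not taken.

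The same shares were taken within kinds of promoter. A promoter was called CpG-rich when its GC content was at least 50% and its ratio of observed to expected CpG at least 0.6 in the 300 bases from 250 before to 50 after the TSS. By that definition 75.6% of the mitochondrial ribosomal protein genes had a CpG-rich promoter, against 46.7% of all protein-coding genes. Among the 59 with such a promoter, 35 (59.3%, interval 45.7 to 71.9%) were nearest to a peak, against 62.4% of all genes with a CpG-rich promoter. The TSS lay within 1 kb of a peak for 41 of the 59 (69.5%), against 64.0% of all genes with a CpG-rich promoter. Among CpG-rich promoters the share of bound genes was thus close to the background. The 19 without a CpG-rich promoter held 14 genes nearest to a peak (73.7%, interval 48.8 to 90.9%), against 18.6% of all protein-coding genes without one. A TSS lay within 1 kb of a peak for 12 of these 19 (63.2%), against 14.2% of all such genes. Mrps22 and Mrpl35, also among the 14, had only peaks over 10 kb away. The definition covers only the 300 bases of its window. The peaks at the 12 starts had a GC content of 63.0 to 69.3%, against a mean of 67.2% over all peaks within 1 kb. The promoters of the 19 had a median GC content of 49.3%, against 49% over all genes outside the definition, and a median ratio of observed to expected CpG of 0.69, against 0.259. The part of promoter type and of expression level in these shares was not tested.

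By position in the ribosome, the bound share ranged from 53.3 to 81.0%. Of the 51 genes for large subunit proteins 33 (64.7%) were nearest to a peak, and of the 26 for small subunit proteins 15 (57.7%, interval 36.9 to 76.6%). Within the large subunit, 17 of 21 genes for mitochondria-specific proteins (81.0%, interval 58.1 to 94.6%) and 16 of 30 genes with a bacterial counterpart (53.3%, interval 34.3 to 71.7%) were nearest to a peak. Within the small subunit the shares were 6 of 10 (60.0%) and 9 of 16 (56.2%). A TSS within 1 kb of a peak was present in 19 of 21 (90.5%) and 18 of 30 (60.0%) of these large subunit classes and in 5 of 10 (50%) and 10 of 16 (62.5%) of the small subunit ones. The shares over all protein-coding genes were 39.1% nearest to a peak and 37.4% within 1 kb. The intervals of the nearest-peak shares overlap between the classes, and no test was made between them. Mrps18a and Mrps30, despite their symbols, encode proteins of the large subunit and were counted there. Mrps36, whose protein belongs to the alpha-ketoglutarate dehydrogenase complex and not to the ribosome, stood apart from the classes and had 1 peak of 5.72-fold.

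**Figure D1:**
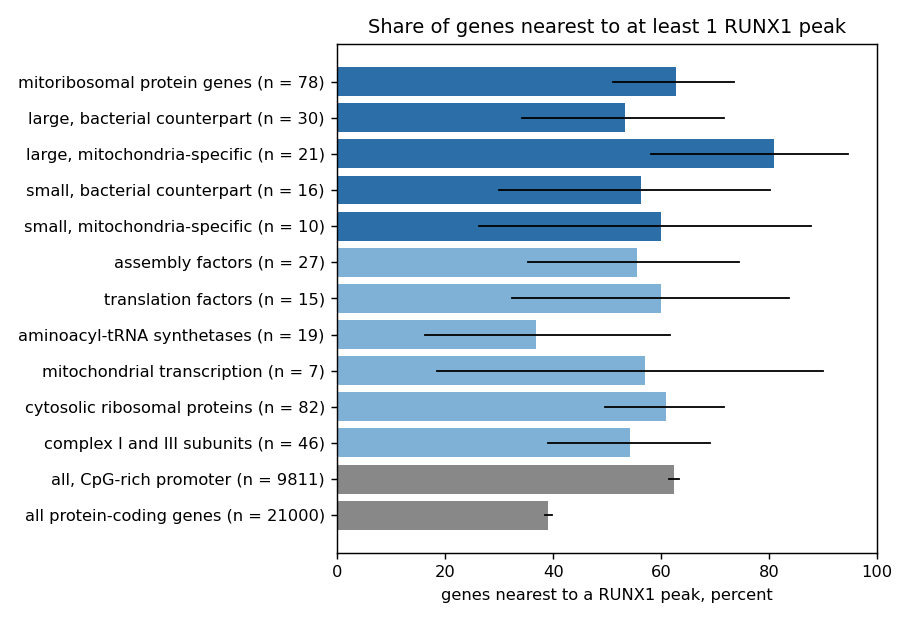
The horizontal axis gives the percent of genes nearest to at least 1 RUNX1 peak, with 1 bar for each group, the number of genes in brackets and a line for the exact 95% binomial interval. The 78 mitochondrial ribosomal protein genes (62.8%) stand beside all protein-coding genes (39.1%) and those with a CpG-rich promoter (62.4%), and the intervals of the 4 ribosome classes in dark blue overlap.

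Peaks at these genes sat tightly on the TSS. Of the 52 peaks, 47 (90.4%) had an edge within 1 kb of the TSS, against 76.0% of all peaks, and the farthest edge among the 47 was 282 bp away, at Mrps23. No peak lay between 1 and 10 kb, and 5 (9.62%) lay farther out, against 15.9% of all peaks. The TSS itself was covered by 32 peaks (61.5%), against 34.2% of all peaks. Among peaks within 1 kb this was 68.1% against 45.0%. The midpoint of 32 of the 47 peaks was downstream of the TSS (68.1%, against 69.5% of all peaks within 1 kb), with a median of 53.5 bp downstream against 106 bp for all. The most upstream midpoint was 431.5 bp before the TSS of Mrps23 and the most downstream one 310.5 bp into Mrpl37. In the annotation, 26 midpoints fell in exon 1 of the assigned gene, 7 in intron 1, 18 upstream of it and 1 beyond its end.

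**Figure D2:**
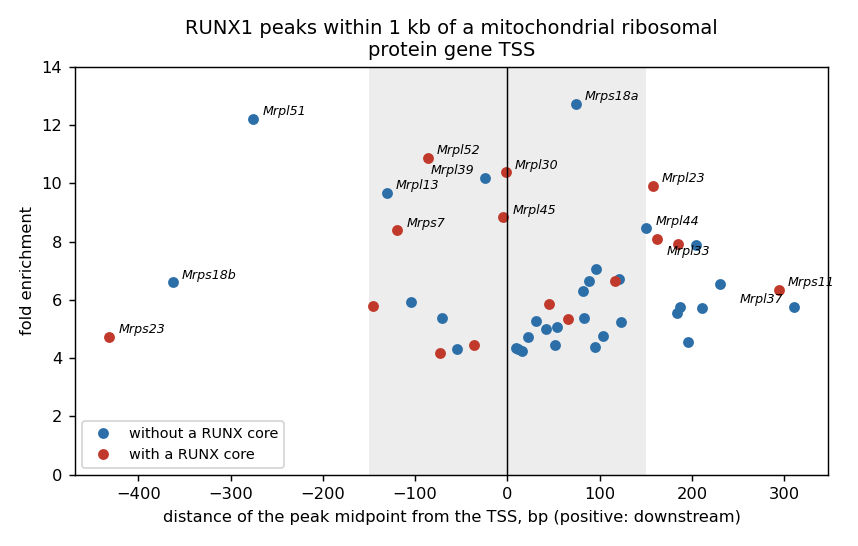
Each of the 47 points is a RUNX1 peak within 1 kb of the TSS of a mitochondrial ribosomal protein gene, with the distance of its midpoint from the TSS in bp on the horizontal axis (positive is downstream) and its fold enrichment on the vertical axis. Red points hold a RUNX core, and a peak whose midpoint falls in the grey band covers the TSS. The midpoints run from 431.5 bp upstream at Mrps23 to 310.5 bp downstream at Mrpl37, with 32 of 47 downstream.

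The enrichment of these peaks was moderate. Their folds ran from 4.11 to 22.7, with a median of 5.83 against 6.41 over all peaks. The lower end is set by the authors' filter, which kept peaks of at least 4-fold. Within 1 kb of the TSS the medians were 5.79 and 6.48. Folds of at least 8 were seen at 14 of the 52 peaks (26.9%, against 32.1% of all) and folds under 5 at 14 (26.9%, against 24.3% of all). Taking the strongest peak of each gene, the median was 5.86 over the 49 genes and 6.66 over all protein-coding genes with a peak. It was 6.66 for genes of the large subunit and 5.39 for genes of the small subunit, with ranges of 4.17 to 22.7 and 4.32 to 13.0 that overlap.

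**Figure D3:**
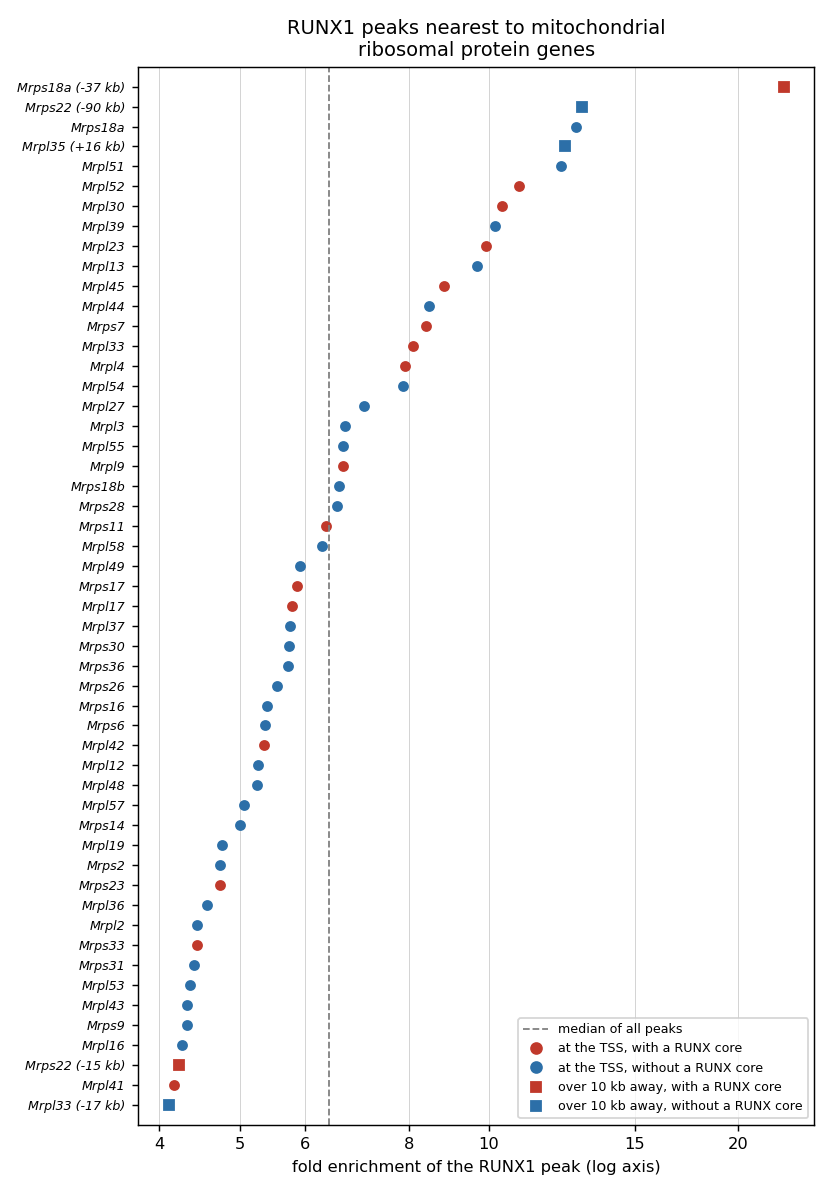
Each of the 52 RUNX1 peaks nearest to a mitochondrial ribosomal protein gene is a point, placed by its fold enrichment on a log axis, with squares for peaks over 10 kb from the TSS and their distance in brackets. Red marks a peak with a RUNX core. The dashed line is the median of all peaks, 6.41, and the points run from 4.11 at Mrpl33 to 22.7 at Mrps18a.

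The strongest peak at a TSS in the set was that of Mrps18a, of 12.7-fold, with its midpoint 74.5 bp downstream. It was followed by Mrpl51, with 12.2-fold at a midpoint 275.5 bp upstream, and Mrpl52, with 10.9-fold at 86.5 bp upstream. All 3 encode mitochondria-specific proteins of the large subunit. Mrpl30 followed with 10.4-fold, Mrpl39, whose protein resembles a threonyl-tRNA synthetase, with 10.2-fold, and Mrpl23, a protein at the exit of the peptide tunnel, with 9.92-fold. Mrpl13 had a peak of 9.67-fold and Mrpl45, which helps to hold the ribosome at the inner membrane, one of 8.83-fold. The peak of Mrpl44, a protein with a ribonuclease III fold, was 8.46-fold, and that of Mrps7, a protein in the head of the small subunit, 8.39-fold. Only 1 gene of the small subunit, Mrps7, thus had a TSS peak of at least 8-fold.

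At the other end stood Mrpl41 with 4.17-fold, Mrpl16 with 4.26-fold, and Mrpl43 and Mrps9 with 4.32-fold each. The 3 genes whose proteins serve the binding of translation factors to the large subunit differed in having a peak. Mrpl12, a protein of the stalk that recruits the factors, had a peak of 5.27-fold over its TSS. Mrpl10, which anchors the stalk, and Mrpl11, at its base, had none, and their closest peaks were 19151 and 19545 bp away. Mrps12, a protein of the decoding centre, had its closest peak at 23784 bp.

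A RUNX core, searched as TGTGGT or TGCGGT on both strands, was present in 17 of the 52 peaks (32.7%, interval 20.3 to 47.1%), against 39.9% of all peaks. Within 1 kb of the TSS the shares were 31.9% and 34.2%. The shuffled letters GTGTTG or GTGTCG, searched in the same way, were found in 21.2% of the 52 peaks and 16.2% of all. There were 20 cores in the 17 peaks, 8 of the form TGTGGT and 12 of the form TGCGGT. Peaks at or above the median fold of the set held a core in 11 of 26 cases (42.3%), and those below it in 6 of 26 (23.1%). Over all peaks, split at their own median, the shares were 45.9 and 33.9%. The absence of a match says only that these letters are not in the 300 bp of the peak.

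The cores of the TSS peaks with the highest folds are shown in windows of 30 bases, read from GRCm38 on the strand that carries the core, with the core in capitals. They show which of the core forms each promoter has and in what surroundings.
Mrpl52 (chr14:54426831-54426860, minus strand): cgacatcttgaaTGTGGTtttcaatcgccg
Mrpl30 (chr1:37890578-37890607, plus strand): gtcgccggtgagTGCGGTcgtgggagctag
Mrpl23 (chr7:142533055-142533084, plus strand): agtgcggggcccTGCGGTgcagggagaggg
Mrpl45 (chr11:97315633-97315662, plus strand): gcgtgacagccgTGCGGTttaccctacttc
Mrps7 (chr11:115603958-115603987, plus strand): cgcgccgagggcTGCGGTccacgggcgcgc
Mrpl33 (chr5:31614209-31614238, plus strand): tctactggccgcTGTGGTattaccccgctg
Mrpl4, first core (chr9:21002892-21002921, minus strand): cgccgaggtcgcTGCGGTacggacgctcgc
Mrpl4, second core (chr9:21002933-21002962, plus strand): cctccgagatgcTGCGGTtgttccaggccg

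In Mrpl52 the core lay 23 bp from the midpoint of the 10.9-fold peak, and in Mrpl23 it lay 120 bp from the midpoint of the 9.92-fold peak. Mrpl4 was the only TSS peak of the set with more than 1 core, and its pair lay 15 and 26 bp to either side of the midpoint of a 7.91-fold peak. The peaks of Mrps18a, Mrpl51, Mrpl39, Mrpl13 and Mrpl44 at the TSS, of 8.46 to 12.7-fold, held no core.

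Other motif letters were counted in the promoters of the 78 genes, from 250 bases before to 50 after the TSS. NRF1, YY1 and the ETS factor GABP are known regulators of nuclear genes for mitochondrial proteins. The NRF1 letters GCATGCGC were found in 11.5% of these promoters, against 3.59% of all protein-coding genes and 6.24% of those with a CpG-rich promoter. For the YY1 letters AAGATGGCG the shares were 11.5%, 1.98% and 3.64%, and for the ETS letters CCGGAAGT 15.4%, 5.33% and 9.14%. The intervals for the set were 5.41 to 20.8% for NRF1 and for YY1, and 8.21 to 25.3% for ETS. Those for NRF1 and ETS include the shares of CpG-rich promoters. The RUNX core was at 23.1%, 21.2% and 19.5%, and so near the background. The SP letters GGGCGG were in 52.6% of the set, 47.9% of all promoters and 77.3% of CpG-rich ones. The NFY letters CCAAT were at 37.2%, 38.9% and 37.2%, and the GATA letters AGATAA or TGATAA at 19.2%, 15.7% and 5.98%. The E-box CACGTG was at 7.69%, against 8.07% of all, and the forkhead letters TGTTTAC or TATTTAC at 5.13%, against 5.42%. The ZNF143 letters ACTACAATT were in 0 of the 78 promoters (interval 0 to 4.62%) and in 0.543% of all. Between the genes nearest to a peak and the other 29, the shares were 12.2 and 10.3% for NRF1, 12.2 and 10.3% for YY1, 16.3 and 13.8% for ETS, and 26.5 and 17.2% for the RUNX core.

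**Figure D4:**
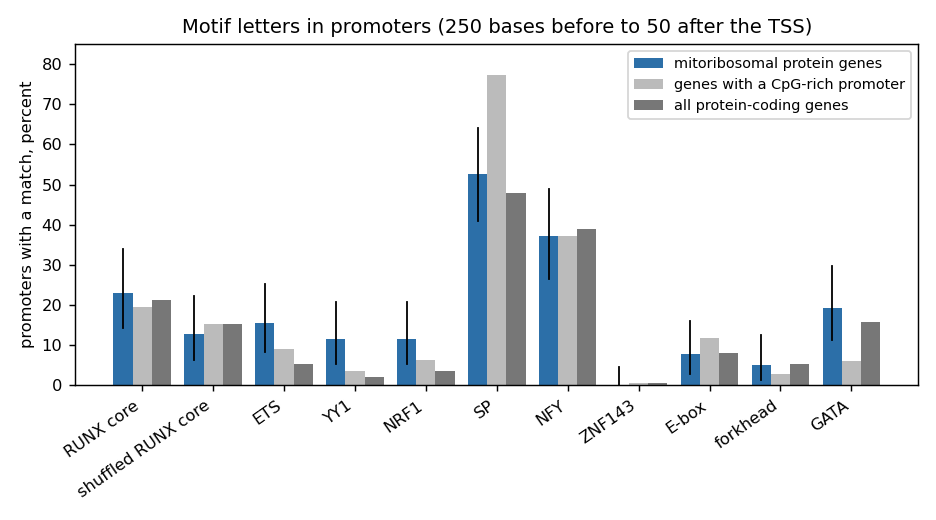
Bars give the percent of promoters (250 bases before to 50 after the TSS) that hold each motif's letters on either strand, for the 78 mitochondrial ribosomal protein genes, genes with a CpG-rich promoter and all protein-coding genes, and black lines give the exact 95% binomial interval for the 78. The NRF1, YY1 and ETS bars of the set (11.5, 11.5 and 15.4%) are higher than those of all genes (3.59, 1.98 and 5.33%). For genes with a CpG-rich promoter they are 6.24, 3.64 and 9.14%, and the lines for NRF1 and ETS include these values. The RUNX core bars of the set and of all genes are 23.1 and 21.2%.

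Within the peaks themselves the NRF1 letters were in 5 of 52 (9.62%, interval 3.2 to 21.0%), against 2.43% of all peaks. The ETS letters were also in 5 (9.62%), against 4.66%, the YY1 letters in 2 (3.85%), against 2.43%, and the E-box in 1 (1.92%), against 8.9%. The windows below show the NRF1 and YY1 matches at the TSS peaks and the ETS match of Mrpl52, on the strand that carries the letters, with the match in capitals. The Mrpl52 match lies 5 bp downstream of the TSS, and the RUNX core printed above for the same peak 63 bp upstream of it.
Mrpl39, NRF1 (chr16:84735351-84735380, plus strand): cacgcgggggcGCATGCGCgcctctccttg
Mrpl9, NRF1 (chr3:94443299-94443328, plus strand): ggcgcagctgcGCATGCGCggggtccttct
Mrps18b, NRF1 (chr17:35916645-35916674, minus strand): aacggcccgacGCATGCGCactgggagcac
Mrpl17, NRF1 (chr7:105811080-105811109, plus strand): tctcagaggacGCATGCGCagtaactcggc
Mrps18a, YY1 (chr17:46111005-46111034, plus strand): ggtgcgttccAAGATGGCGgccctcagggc
Mrpl42, YY1 (chr10:95501903-95501932, minus strand): agattgaagcAAGATGGCGagcgcgcggtg
Mrpl52, ETS (chr14:54426899-54426928, minus strand): gagcaagggaaCCGGAAGTgggcgtggccc
In Mrpl39 and Mrps18a, whose peaks of 10.2 and 12.7-fold held no RUNX core, the NRF1 letters lay 122 bp upstream and the YY1 letters 15 bp downstream of the TSS. Mrpl9, Mrpl17 and Mrpl42 held a RUNX core in the same peak.

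Many of these genes start back to back with a neighbour. A gene on the other strand with its TSS within 1 kb upstream, or overlapping head to head by at most 1 kb, was found for 31 of the 78 (39.7%), against 13.9% of all protein-coding genes. All 31 had a CpG-rich promoter. Among genes with such a promoter the share with a divergent neighbour was 52.5% in the set and 23.2% over all protein-coding genes. The 31 were nearest to a peak in 16 cases (51.6%) and had a TSS within 1 kb of one in 22 (71.0%). For the 47 without such a neighbour the counts were 33 (70.2%) and 31 (66.0%). Over all protein-coding genes the shares were 47.1% and 65.7% with a divergent neighbour and 37.8% and 32.9% without one. Genes with both a divergent neighbour and a CpG-rich promoter had shares of 52.2% and 72.2%, close to those of the 31. One peak was tied between a gene of the set and another gene in 9 of 52 cases (17.3%), against 2.56% of all peaks. These were Mrpl30 with Mitd1, Mrpl13 with Mtbp, Mrps7 with Gga3, Mrpl27 with Eme1, Mrpl55 with 2610507I01Rik, Mrpl49 with Fau, Mrps6 with Slc5a3, Mrpl57 with Ska3, and Mrpl43 with Twnk, the helicase of mitochondrial DNA. Of the genes of the set in these ties, only Mrps6 had no divergent neighbour. A tied peak can enter the set through any of its genes, which raises the share of ties in it. The share of ties among all peaks within 1 kb was not taken.

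The 6 genes with a TSS within 1 kb of a peak that was nearest to another gene all had a divergent neighbour. Mrpl40 stood 251 bp from the edge of a peak of 24.1-fold (peak caller p of 1.52e-39) that was nearest to Hira, a histone chaperone gene, at 138 bp. That peak held 1 core. Mrpl18 was 294 bp from a peak of 9.37-fold nearest to Tcp1, a chaperonin subunit gene, and this peak held 2 cores. The peaks beside Mrpl21 (8.02-fold, nearest to Ighmbp2), Mrpl14 (6.17-fold, nearest to Tmem63b) and Mrps18c (5.55-fold, nearest to Helq) held 1 core each. Mrpl46 and Mrps11 form a pair within the set with 42 bp between their starts. Their shared peak of 6.35-fold held 1 core. It was 145 bp from the TSS of Mrps11 and 187 bp from that of Mrpl46, and was counted for Mrps11.

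Pairs with another gene for a mitochondrial protein varied. The starts of Mrpl43 and Twnk lie 116 bp apart and shared the 4.32-fold peak. Mrps12 and Sars2, the mitochondrial seryl-tRNA synthetase, lie 147 bp apart, Mrps27 and Ptcd2 108 bp, and Mrpl47 and Ndufb5, a complex I subunit, 308 bp, and none of these 3 genes of the set had a peak within 10 kb.

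The remaining 5 of the 52 peaks lay far from the genes they were assigned to, and they hold 3 of the 4 highest folds. The highest of all, 22.7-fold (peak caller p of 2.88e-94), ranked 221 among the placed peaks and lay upstream of Mrps18a with its midpoint 36937.5 bp from the TSS. It is a stretch between genes, with the TSS of Vegfa, the vascular endothelial growth factor gene, 41689 bp away on its other side. The assignment to Mrps18a therefore rests on a difference of a few kb. With 3 cores it held more than any other peak of the set, and its sequence is shown whole for that reason, on the plus strand with the cores in capitals, where ACCGCA is TGCGGT read on the other strand.
Mrps18a upstream peak (chr17:46073917-46074216, plus strand): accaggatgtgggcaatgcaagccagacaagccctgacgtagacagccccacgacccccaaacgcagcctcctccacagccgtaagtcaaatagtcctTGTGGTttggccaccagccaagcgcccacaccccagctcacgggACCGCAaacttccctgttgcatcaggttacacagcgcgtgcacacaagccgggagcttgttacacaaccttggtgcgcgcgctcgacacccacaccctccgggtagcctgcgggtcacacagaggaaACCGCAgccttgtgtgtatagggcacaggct

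Mrps22 had no peak within 10 kb but a pair of peaks upstream. Its protein belongs to the small subunit and is specific to mitochondria, and variants of the human gene are known from ovarian insufficiency. The farther peak, with its midpoint 89602.5 bp from the TSS, was 13.0-fold and held no core, and the nearer one, 14868.5 bp from the TSS, was 4.23-fold and held 1 core. Both lie on the side of Mrps22 that faces Foxl2, the gene for a forkhead factor of granulosa cells. The TSS of Foxl2 is 353928 bp from that of Mrps22 and had peaks of 9.05 and 6.48-fold nearest to it. Between the farther peak and Foxl2 lie E330023G01Rik, Prr23a1, Prr23a2, Prr23a3, 7420426K07Rik and Foxl2os. Which gene, if any, these peaks act on was not measured, and nearest-gene assignment says only that the TSS of Mrps22 is the closest. The 13.0-fold peak is shown whole on the plus strand, since it is the highest fold of the set without a core, with the NRF1 letters in capitals, which form a palindrome and match on both strands.
Mrps22 upstream peak (chr9:98691132-98691431, plus strand): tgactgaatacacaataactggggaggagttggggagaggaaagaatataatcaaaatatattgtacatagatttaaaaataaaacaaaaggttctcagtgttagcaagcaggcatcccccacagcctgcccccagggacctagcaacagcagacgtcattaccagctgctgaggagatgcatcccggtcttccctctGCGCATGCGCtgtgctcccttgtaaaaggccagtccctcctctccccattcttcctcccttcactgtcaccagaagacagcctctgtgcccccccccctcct

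**Figure D5:**
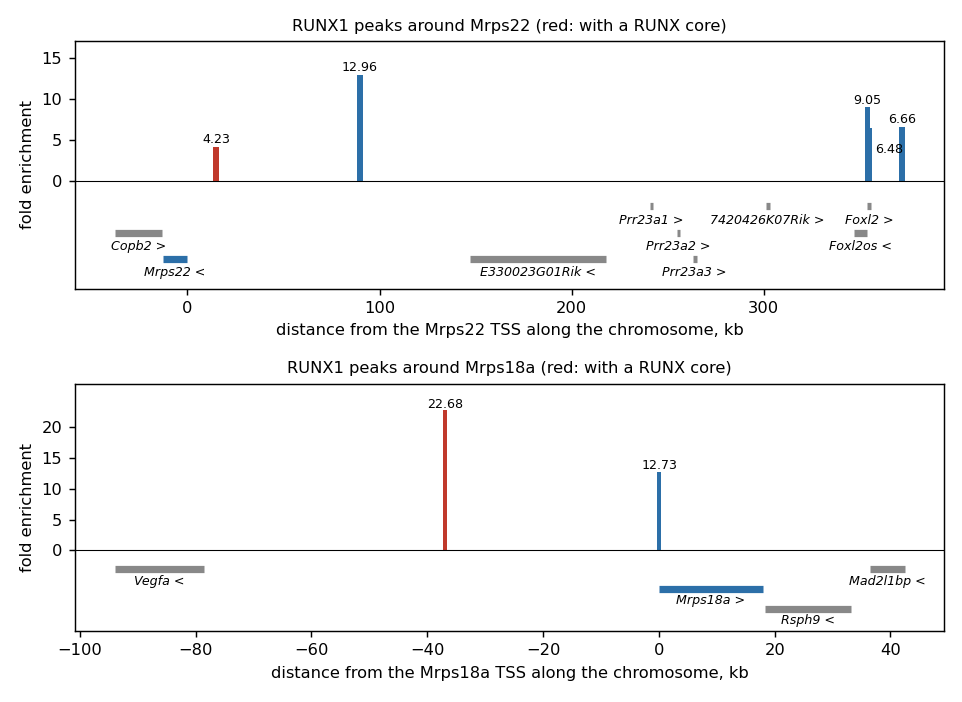
RUNX1 peaks (bars, with fold enrichment on the vertical axis) and genes (thick lines, with an arrowhead for the strand) are drawn by distance in kb from the TSS of Mrps22 (top) and Mrps18a (bottom). Red bars hold a RUNX core. Mrps22 has peaks of 4.23 and 13.0-fold on the side of Foxl2 and none at its TSS, and Mrps18a has one of 12.7-fold at its TSS and one of 22.7-fold between it and Vegfa.

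The other far peaks belonged to Mrpl35 and Mrpl33. Mrpl35 had no peak at its TSS, and its 12.3-fold peak lay 16126.5 bp downstream, within the body of the neighbouring gene Reep1, with no core. Mrpl33 had a TSS peak of 8.10-fold with 1 core and another of 4.11-fold, the lowest of the set, 16998.5 bp upstream with none.

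A peak lay within 10 kb of the TSS for 58 of the 78 genes (74.4%). The share was 43.9% over all protein-coding genes and 68.9% over those with a CpG-rich promoter. For the other 20 genes no peak lay closer than 10 kb to the TSS. In the large subunit these were Mrpl1, Mrpl10, Mrpl11, Mrpl15, Mrpl24, Mrpl32, Mrpl34, Mrpl35, Mrpl47 and Mrpl50. In the small subunit they were Mrps5, Mrps10, Mrps12, Mrps15, Mrps21, Mrps22, Mrps24, Mrps25, Mrps27 and Mrps35. Another 5 had their closest peak between 1 and 10 kb, at 3136 bp for Mrpl22, 8029 bp for Mrps34, 8140 bp for Mrpl38, 9214 bp for Mrpl20 and 9691 bp for Mrpl28, and each of these peaks was nearest to another gene. The TSS farthest from any peak was that of Mrpl32, at 549365 bp. A gene without a peak is one where none passed the authors' limits at this depth, and binding below 4-fold is not excluded.

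The other genes that the mitochondrial ribosome needs were nearest to a peak in 40 of 73 cases (54.8%, interval 42.7 to 66.5%), against 39.1% of all protein-coding genes and 62.4% of those with a CpG-rich promoter. All 5 ribosomal proteins with other symbols were nearest to a peak, namely Dap3, a GTP-binding protein of the small subunit (9.26-fold), Aurkaip1 (7.51-fold), Ptcd3 (6.48-fold, 30052 bp from the TSS), Gadd45gip1 (6.25-fold) and Chchd1 (4.83-fold). Of 27 assembly factors 15 (55.6%) were, with the highest folds at Dhx30, an RNA helicase (18.9), Ybey, a ribonuclease (14.6), Gtpbp10, a GTPase (12.3), and C1qbp, a matrix protein (8.95). Of 15 translation factors 9 (60.0%) were, led by Guf1, an elongation factor (11.7), Mtif2, the initiation factor that brings the first tRNA (11.1), Taco1, an activator of Cox1 translation (10.6), and Slirp, an RNA-binding protein (6.79). Among the 19 mitochondrial aminoacyl-tRNA synthetases 7 (36.8%, interval 16.3 to 61.6%) were nearest to a peak, against 39.1% of all genes. All 7 were among the 17 with a CpG-rich promoter, a share of 41.2%, against 62.4% of all such genes. A TSS lay within 1 kb of a peak for 9 of the 19 (47.4%), against 37.4% of all genes. These 9 were also among the 17 with a CpG-rich promoter, a share of 52.9%, against 64.0% of all such genes. The strongest peaks were those of Gars (10.6-fold), Aars2 (8.84), Mars2 (7.91) and Yars2 (7.51). Of 7 genes for transcription in mitochondria 4 were nearest to a peak, namely Tfb2m (10.9-fold), Tfam (7.83), Mterf1b (7.67, 53813 bp from the TSS) and Polrmt (4.38).

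Beside these, 50 of 82 cytosolic ribosomal protein genes (61.0%, interval 49.6 to 71.6%) and 25 of 46 genes for subunits of respiratory complexes I and III (54.3%, interval 39.0 to 69.1%) were nearest to a peak, with the same 39.1% of all protein-coding genes and 62.4% of CpG-rich ones as background. The median fold of the strongest peak was 7.47 for the cytosolic set and 6.02 for the complexes, against 5.86 for the mitochondrial ribosomal protein genes. The quartiles of the 3 sets overlap, at 6.09 to 9.19, 5.14 to 10.2 and 5.0 to 8.1. A divergent neighbour was present for 19.5% of the cytosolic ribosomal protein genes and 39.1% of the complex I and III genes. In the promoters of these 2 sets the NRF1 letters were at 6.1 and 10.9%. The YY1 letters were at 4.88 and 13.0%, and the ETS letters at 20.7 and 10.9%. For the mitochondrial ribosomal protein genes the 3 shares were 11.5, 11.5 and 15.4%.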

How the data were processed

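RUNX1 ChIP-seq was performed on ovaries of CD1 embryos at E14.5. By the study's methods the authors filtered single-end reads on quality, mapped them to mm10 keeping unique hits, removed duplicates, merged the replicates, called peaks, reset each peak to 300 bp and kept those of at least 4-fold above both input and the local signal. HOMER 4.9, Picard 1.110, Bowtie 1.2 and bedtools 2.24.0 are the tools in the submitters' processing notes. The deposited list gives a fold over background (a ratio) and a p-value for each peak, both from the authors' peak caller, and no read counts or depth. Merging leaves no replicate error, and a filter on unique hits lowers signal at sequence shared with pseudogenes.

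Peaks were assigned to the nearest TSS of 45756 curated RefSeq transcripts on GRCm38, 4 peaks outside chromosomes were left out, and sequences were read from the same assembly. Python 3.11.15, pandas 2.3.3, scipy 1.17.1 and pysam 0.24.0 were used, and the assignment and motif search were tested on simulated data. The members and gene lists were chosen with earlier results of these data known. Genes named were those with the 12 highest or 5 lowest folds, 2 or more peaks, a far peak, 2 or more cores, or a peak assigned to a neighbour, genes without a peak, 8 genes of known role, up to 4 genes of each list with the strongest peaks and all 5 with other symbols. Other genes named beside them, such as neighbours and genes with printed motifs, were chosen after their values were seen. One list symbol, Mtrfr, matched no gene. Alternatives were limits on fold and p-value, other TSS sets and distances, and other core forms and windows, and the CpG-rich background and the limit to peaks within 1 kb for folds and cores were added after seeing the data.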

Additional observations from a re-analysis of the deposited data

How the results depend on the processing

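Of 51 alternatives, 35 stayed within the limits set for calling a value unchanged, which for counts was a factor of 1.5. The other 16 follow. With peaks of at least 8-fold, 13 genes were nearest to one of 14 peaks, 15 had a TSS within 1 kb, the list genes fell to 12, the median fold was 10.2 and the core share 50%. With a p-value under 1e-20 these were 15, 16, 18, 22 and a median of 8.39. At these limits the share of genes nearest to a peak was 16.7 and 19.2%, against 13.8 and 15.1% of all protein-coding genes, and the share with a TSS within 1 kb was 19.2 and 23.1%, against 12.6 and 14.9%. With a CpG-rich promoter, however, 8 of the 59 genes of the set were nearest to a peak of at least 8-fold. Over all genes with such a promoter these were 2237 of 9811, a larger share. The other shares at these limits were not taken within kinds of promoter. The share of peaks at the TSS was 80.8% with an edge and 46.2% with a midpoint within 100 bp. The core share was 19.2% for TGCGGT alone, 15.4% for TGTGGT alone and 13.5% in the central 100 bp, against 23.7, 19.5 and 21.3% of all peaks. Without the limits on strength, the genes nearest to a peak numbered 46 to 49 of 78 under other TSS sets and distances, and 35 of the 59 with a CpG-rich promoter. Those with any TSS within 10 kb of a peak numbered 58 (74.4%), against 43.9% of all protein-coding genes. No paired analysis was possible because the authors merged the replicates before peak calling, and for the same reason no replicate could be left out. Depth per peak is unknown, so that weak binding below the 4-fold limit cannot be seen.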
